A study of Mus musculus with 18 samples.

Results

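The 44 genes described here encode the machinery that copies DNA. They were chosen by symbol, as subunits and partners of the replication fork, and the rule uses no measured value. Earlier results of these data were known when they were chosen. All 44 were found in both assays, among the 55153 genes of the RNA-seq table and the 14348 genes of the Ribo-seq table whose counts are not blank. RNA-seq (RNA level of each gene) and Ribo-seq (fragments of mRNA protected by ribosomes, here called footprints) were performed on cerebral cortices of E15.5 mice labelled C57BL/6. Ctrl cortices were labelled wild type, *F*-cKO cortices carried *Fto* f/f with *Emx1*-cre, and *M*-cKO cortices carried *Mettl3* f/f with *Emx1*-cre, with 3 libraries per group and assay and 18 in all. The study's methods give both floxed lines a mixed background of C57BL/6 and another strain, and the *Emx1*-cre mice a C57BL/6 background. *Fto* encodes a demethylase and *Mettl3* the catalytic methyltransferase of m6A, a methyl mark on mRNA. *Emx1*-cre recombines in the cortical lineage, so interneurons that enter the cortex, blood vessels and microglia keep the floxed gene. The labels call the replicates biological repeats and do not tie them to litters.

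Replication begins when the origin recognition complex binds DNA and, with CDC6 and CDT1, loads the ring of MCM2 to MCM7 as an inactive helicase. MCM10, CDC45 and the GINS complex turn this ring into a moving helicase, polymerase alpha with primase lays down primers, and the clamp PCNA, placed by the clamp loader RFC, tethers polymerases delta and epsilon. In the embryonic cortex DNA is copied by the progenitors of the ventricular and subventricular zones, while neurons have left the cell cycle. In these bulk samples fewer cells of a type and less RNA per cell cannot be told apart here.

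Many replication genes are known targets of E2F transcription factors, so their promoters were examined for E2F words. Windows from 250 before to 50 after the start of the gene, were read from RefSeq (GRCm38.p6) and were found for 36 of the 44 genes. At least 1 of the words TTTCCCGC, TTTGGCGC, TTTGCCGC and TTTCGCGC, on either strand, was present in the windows of 15 of these 36 genes (41.7%). Among all 27025 genes with such windows, 704 (2.6%) held a word. These genes were not matched to the 36 in expression or base composition. Of 6 *Mcm* helicase genes, 5 had a window and 4 of these held a word. The CCAAT word, on either strand, was in the windows of 23 of the 36 genes (63.9%), compared with 41.1% of all genes. A match describes the letters only and is not a measured binding site. The windows of *Mcm3* and *Mcm5* (helicase), *Cdt1* (loading), *Pola1* (primer synthesis) and *Orc3* (origin recognition) are shown because the first 4 genes are among those with higher RNA described below, whereas *Orc3* carries a word as well and passed the test in *M*-cKO RNA as lower. They lie at chr1:20820263-20820562 (minus strand), chr8:75109259-75109558 (plus), chr8:122567765-122568064 (plus), chrX:93632106-93632405 (minus) and chr4:34614893-34615192 (minus). Each is written 5′ to 3′ on the strand of the gene, with E2F words in capitals.
Mcm3: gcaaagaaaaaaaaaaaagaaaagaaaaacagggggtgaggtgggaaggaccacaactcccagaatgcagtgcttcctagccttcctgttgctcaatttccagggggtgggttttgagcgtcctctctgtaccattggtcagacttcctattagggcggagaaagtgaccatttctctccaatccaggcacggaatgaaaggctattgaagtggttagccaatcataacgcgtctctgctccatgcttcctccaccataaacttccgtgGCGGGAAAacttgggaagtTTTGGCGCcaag
Mcm5: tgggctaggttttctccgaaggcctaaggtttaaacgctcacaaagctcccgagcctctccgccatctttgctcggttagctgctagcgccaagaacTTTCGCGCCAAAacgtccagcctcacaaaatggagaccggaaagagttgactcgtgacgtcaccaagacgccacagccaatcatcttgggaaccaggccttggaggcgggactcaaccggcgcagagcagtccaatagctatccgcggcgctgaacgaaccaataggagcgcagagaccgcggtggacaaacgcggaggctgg
Cdt1: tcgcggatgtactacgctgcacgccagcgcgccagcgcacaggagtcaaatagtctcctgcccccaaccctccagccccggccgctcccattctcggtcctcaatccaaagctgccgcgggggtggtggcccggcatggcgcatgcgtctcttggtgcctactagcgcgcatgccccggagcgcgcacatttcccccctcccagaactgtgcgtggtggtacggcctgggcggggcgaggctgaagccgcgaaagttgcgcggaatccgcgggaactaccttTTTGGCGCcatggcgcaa
Pola1: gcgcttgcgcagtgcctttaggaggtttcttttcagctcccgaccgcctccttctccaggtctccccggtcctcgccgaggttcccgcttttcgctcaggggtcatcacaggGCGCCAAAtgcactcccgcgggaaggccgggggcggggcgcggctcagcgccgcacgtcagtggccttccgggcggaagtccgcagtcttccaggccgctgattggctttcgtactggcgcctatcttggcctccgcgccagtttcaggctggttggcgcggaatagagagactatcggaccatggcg
Orc3: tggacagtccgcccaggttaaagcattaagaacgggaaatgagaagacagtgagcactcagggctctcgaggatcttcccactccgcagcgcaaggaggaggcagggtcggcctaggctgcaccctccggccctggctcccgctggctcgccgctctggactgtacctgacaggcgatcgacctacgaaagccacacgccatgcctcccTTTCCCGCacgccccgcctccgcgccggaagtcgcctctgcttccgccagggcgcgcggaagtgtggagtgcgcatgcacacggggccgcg
In *Mcm5* 2 words, 1 on each strand, overlap and begin 153 and 149 bases before the start. The word of *Orc3* begins 41 bases before the start and that of *Pola1* 138 bases before it. A word was present in 10 of the 23 genes with a window whose RNA was higher in *F*-cKO (43.5%) and in 5 of the other 13 (38.5%).

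Libraries held 18504094 to 22592406 counted reads in RNA-seq and 10973699 to 35853227 in Ribo-seq. Gene-level RNA cannot check the *Mettl3* deletion, because exons outside the deleted part are counted. *Fto* RNA was 10.8, 11.2 and 8.37 FPKM (fragments per kilobase of gene, scaled to depth) in Ctrl and 3.26, 7.56 and 2.43 FPKM in *F*-cKO, where replicate 2 kept the most. *Fto* footprints were 25.9, 22 and 17.6 RPKM in Ctrl and 3.91, 2.11 and 4.04 RPKM in *F*-cKO. *Mettl3* RNA was 5.84, 6.43 and 5.07 FPKM in Ctrl and 8.61, 7.82 and 8.34 FPKM in *M*-cKO, whereas its footprints were 9.16, 9.25 and 9.93 RPKM in Ctrl and 6.78, 6.02 and 6.4 RPKM in *M*-cKO. Ctrl replicate 3 of the RNA-seq stood apart from both other Ctrl libraries in progenitor genes. In it, set against the mean of the Ctrl libraries on the log2 scale, the median was −0.31 over 14 mitosis genes and −0.39 over 7 intermediate progenitor genes, compared with 0.03 over 10 neuronal genes. *F*-cKO replicate 2 of the Ribo-seq held 301.4 CPM (counts scaled to a common depth) of 6 endothelial markers, where the other 8 libraries held 12.4 to 27.4 CPM. It also held the most of the meningeal markers (320.4 CPM, compared with 11.2 to 164.6 CPM) and the microglial markers (53.5 CPM, compared with 14.9 to 22.9 CPM), and the least of the neuronal genes (7205 CPM, compared with 10760 to 13630 CPM). Counts of called genes in RNA against Ctrl are given below with and without Ctrl replicate 3, and footprint and TE values with and without the *F*-cKO Ribo-seq replicates that stood apart.

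In Ctrl cortex the replication genes were well expressed, with a median level of 8.43 FPKM over the 44 genes, compared with 7.11 FPKM over the 13574 genes at 1 FPKM or more. *Pcna*, the sliding clamp, had the highest RNA level of the 44 with 62, 62.5 and 54.4 FPKM. *Mcm7* followed at a mean of 31.7 FPKM (± 2.24 SD, n = 3). *Orc1*, the large subunit of the origin recognition complex, was lowest with 0.629, 0.84 and 0.522 FPKM and was the only member below 1 FPKM. Together the 44 genes took 0.172% ± 0.0137 (SD, n = 3) of the RNA-seq counts in Ctrl, compared with 0.222% ± 0.0132 for *F*-cKO and 0.205% ± 0.007 for *M*-cKO.

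Compared to Ctrl, 26 of the 44 genes were higher in RNA of *F*-cKO cortices and none was lower (adjusted *P* below 0.05 by edgeR's quasi-likelihood test, corrected over all genes by Benjamini and Hochberg). Of all 16944 genes tested, 11.5% were higher and 9.57% lower. The median log2 fold change of the 44 genes was 0.39, compared with −0.01 over all genes. In *M*-cKO cortices 18 of the 44 genes were higher and 2 were lower, where 15.5% of 16968 genes were higher and 14.1% lower, and the median log2 fold change was 0.24, compared with −0.01 over all genes. The same 3 Ctrl libraries serve both comparisons. All 3 *F*-cKO libraries lay above all 3 Ctrl libraries for 35 of the 44 genes and below for 0 (21.8% and 19.1% of all genes), and for *M*-cKO 26 lay above and 2 below (22.9% and 21.4% of all genes). Without Ctrl replicate 3 the counts were 15 higher in *F*-cKO (5.69% of all genes higher) and 13 higher and 0 lower in *M*-cKO (11.8% of all genes higher and 8.65% lower).

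**Figure D1:**
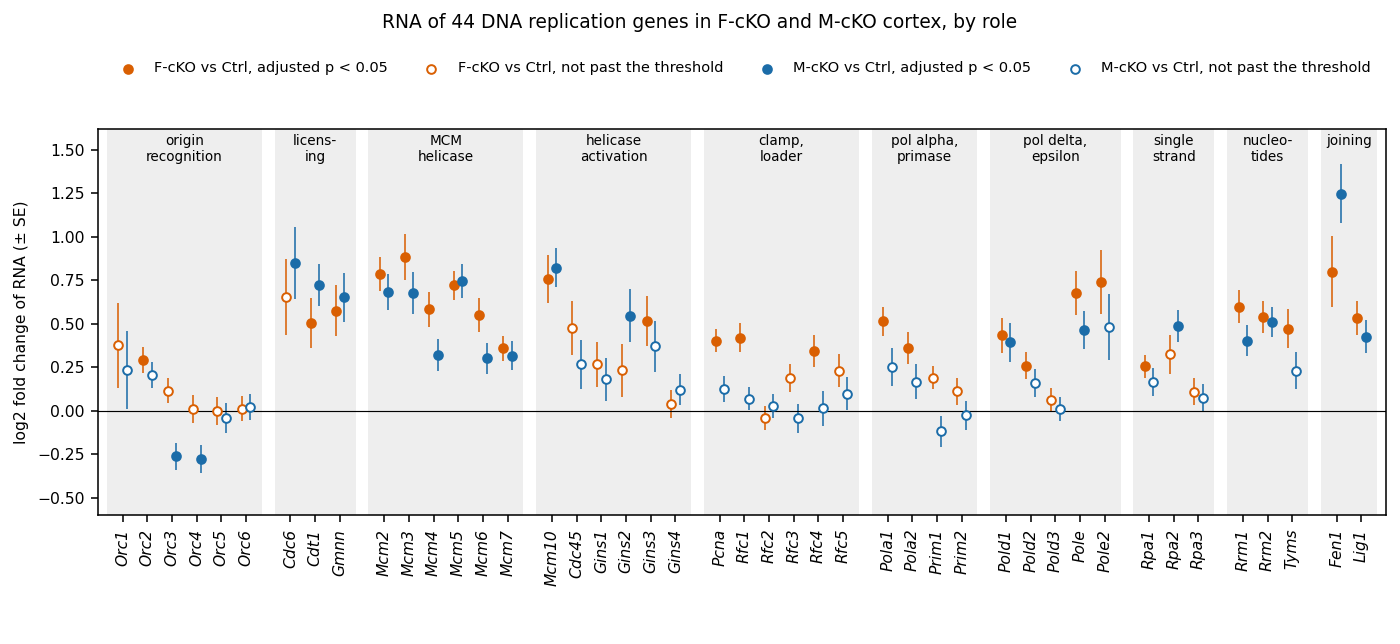
Each point is the log2 fold change of RNA against Ctrl (y axis) of 1 gene (x axis), with its standard error, for *F*-cKO (orange) and *M*-cKO (blue). Filled points passed an adjusted *P* of 0.05. All 6 *Mcm* helicase genes are filled in both colours, of the origin recognition genes *Orc2* is filled above 0 for *F*-cKO and *Orc3* and *Orc4* below 0 for *M*-cKO, and *Pcna*, *Rfc1* and *Rfc4* are filled for *F*-cKO and not for *M*-cKO.

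The 6 helicase subunits were higher in both knockouts, 6 of 6 in *F*-cKO and 6 of 6 in *M*-cKO. *Mcm5* had 12.1, 12.3 and 9.97 FPKM in Ctrl, 19.7, 18.1 and 19.3 FPKM in *F*-cKO, and 19, 17.3 and 21.6 FPKM in *M*-cKO. No knockout library overlapped with Ctrl for this gene. Its log2 fold change was 0.72 ± 0.09 (SE) in *F*-cKO (adjusted *P* = 0.00293, edgeR) and 0.74 ± 0.10 in *M*-cKO (adjusted *P* = 0.000304, edgeR). *Mcm3* had 12, 11.8 and 8.64 FPKM in Ctrl, 18.8, 18.4 and 23.2 FPKM in *F*-cKO, and 16.8, 15.7 and 19.8 FPKM in *M*-cKO. *Mcm2* rose by a log2 fold change of 0.78 ± 0.10 in *F*-cKO and 0.68 ± 0.10 in *M*-cKO, from 8.95, 8.75 and 6.77 FPKM in Ctrl. *Mcm4*, *Mcm6* and *Mcm7* rose in *M*-cKO with log2 fold changes of 0.32 ± 0.09, 0.30 ± 0.09 and 0.32 ± 0.08. In *F*-cKO their changes were 0.58 ± 0.10, 0.55 ± 0.10 and 0.36 ± 0.07. Without Ctrl replicate 3, all 6 remained higher in *F*-cKO and 3 of 6 in *M*-cKO. *Mcm7* contains 3 microRNA genes within its span and overlaps *Ap4m1* at its end, and strand use in the counting is not given in the sources used here.

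**Figure D2:**
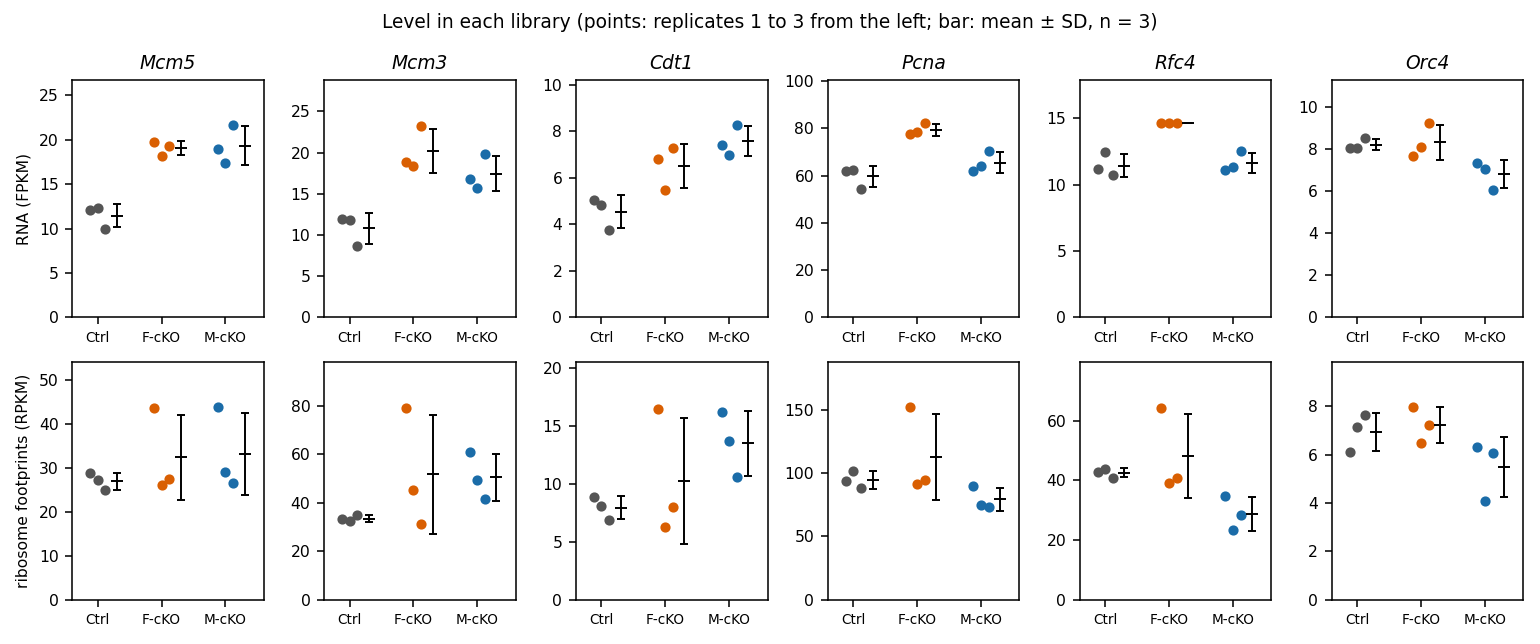
RNA level in FPKM (upper row) and footprint level in RPKM (lower row) of 6 genes in each library, with replicates 1 to 3 from the left in each group and the mean ± SD beside them. RNA of *Mcm5*, *Mcm3* and *Cdt1* in all 6 knockout libraries lies above all Ctrl libraries, whereas *Pcna* and *Rfc4* RNA do so in *F*-cKO, and *Rfc4* footprints lie below Ctrl in *M*-cKO.

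Of the 3 genes that control loading of the helicase, 2 were higher in *F*-cKO and 3 in *M*-cKO. *Cdt1*, which brings the MCM ring to the origin, had 5.05, 4.85 and 3.74 FPKM in Ctrl, 6.79, 5.46 and 7.27 FPKM in *F*-cKO, and 7.42, 7 and 8.27 FPKM in *M*-cKO. Its log2 fold change was 0.51 ± 0.14 in *F*-cKO (adjusted *P* = 0.0339, edgeR) and 0.72 ± 0.12 in *M*-cKO (adjusted *P* = 0.0013, edgeR). *Gmnn*, which encodes the CDT1 inhibitor geminin, had 9.11, 10.3 and 6.64 FPKM in Ctrl, 13.2, 12.6 and 13.3 FPKM in *F*-cKO, and 13.9, 13.2 and 14.1 FPKM in *M*-cKO, with no overlap between knockout and Ctrl libraries. *Cdc6*, the partner of CDT1 in loading, was higher in *M*-cKO by 0.85 ± 0.21 on the log2 scale, and in *F*-cKO its change of 0.65 ± 0.22 did not pass the threshold (adjusted *P* = 0.0587, edgeR). Without Ctrl replicate 3, 0 of these 3 licensing genes passed in *F*-cKO and all 3 did in *M*-cKO.

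Of the 6 genes that activate the helicase, 2 were higher in each knockout, and *Mcm10* was higher in both. *Mcm10* had 1.36, 1.2 and 1.12 FPKM in Ctrl, 2.11, 1.79 and 2.4 FPKM in *F*-cKO, and 2.28, 2.13 and 2.16 FPKM in *M*-cKO. The log2 fold change was 0.76 ± 0.14 in *F*-cKO (adjusted *P* = 0.00666, edgeR) and 0.82 ± 0.11 in *M*-cKO (adjusted *P* = 0.000357, edgeR). Of the GINS subunits, *Gins3* was higher in *F*-cKO (0.52 ± 0.14) and *Gins2* in *M*-cKO (0.55 ± 0.15). *Cdc45*, *Gins1* and *Gins4* passed in neither, with changes between 0.04 and 0.48. The calls of *Gins3* in *F*-cKO and *Gins2* in *M*-cKO were lost without Ctrl replicate 3, which left *Mcm10* in each.

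Of the 6 origin recognition genes 1 was higher in *F*-cKO and 0 in *M*-cKO. The gene was *Orc2*, with 7.6, 7.36 and 7.17 FPKM in Ctrl and 8.67, 9.1 and 9.5 FPKM in *F*-cKO (log2 fold change 0.29 ± 0.07, adjusted *P* = 0.0242, edgeR). This call was lost without Ctrl replicate 3 (adjusted *P* = 0.0782, edgeR) and was made in 5 of 11 alternative analyses. In *M*-cKO 2 of the 6 were lower. *Orc3* had 9.79, 9.18 and 9.88 FPKM in Ctrl, 9.99, 10.2 and 11.3 FPKM in *F*-cKO, and 8.83, 7.97 and 7.41 FPKM in *M*-cKO, so that every *M*-cKO library lay below every other library. *Orc4* had 8.04, 8.04 and 8.49 FPKM in Ctrl, 7.64, 8.06 and 9.21 FPKM in *F*-cKO, and 7.32, 7.03 and 6.04 FPKM in *M*-cKO. The log2 fold changes in *M*-cKO were −0.26 ± 0.08 for *Orc3* (adjusted *P* = 0.0238, edgeR) and −0.28 ± 0.08 for *Orc4* (adjusted *P* = 0.0217, edgeR). Both calls were lost without Ctrl replicate 1 or 3, or without *M*-cKO replicate 2 or 3. *Orc5* and *Orc6* had changes between −0.04 and 0.02 in both knockouts. *Orc4* shares 3404 bases of its locus with *Mbd5*.

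Of the 6 genes of the clamp and its loader, 3 were higher in *F*-cKO and 0 in *M*-cKO. *Pcna* RNA was 77.5, 78.6 and 82.2 FPKM in *F*-cKO, above all Ctrl libraries, and 61.8, 64 and 70.6 FPKM in *M*-cKO, overlapping with Ctrl. The log2 fold change was 0.40 ± 0.07 in *F*-cKO (adjusted *P* = 0.00505, edgeR) and 0.13 ± 0.07 in *M*-cKO (adjusted *P* = 0.225, edgeR). The *Pcna* pseudogene *Pcna-ps2* held 47 to 105 reads per RNA-seq library and another, *Pcna-ps1*, held 0, and how reads that match both were assigned is not given in the sources used here. *Rfc1*, the large subunit of the loader, had 7.45, 7.25 and 6.87 FPKM in Ctrl, 8.76, 9.57 and 10.7 FPKM in *F*-cKO, and 7.65, 7.47 and 7.65 FPKM in *M*-cKO. *Rfc4*, a small subunit, had 11.2, 12.4 and 10.7 FPKM in Ctrl, 14.6, 14.6 and 14.7 FPKM in *F*-cKO, and 11.1, 11.3 and 12.5 FPKM in *M*-cKO. *Rfc1* and *Rfc4* were higher in *F*-cKO (log2 fold changes 0.42 ± 0.08 and 0.34 ± 0.09), and *Rfc2*, *Rfc3* and *Rfc5* did not pass in either knockout. With Ctrl replicate 3 left out, 2 of the 6 genes passed in *F*-cKO and *Rfc4* did not. In *M*-cKO 0 of the 6 genes of the clamp and loader passed, with changes between −0.04 and 0.13.

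Of the 4 genes of polymerase alpha and primase, 2 were higher in *F*-cKO and none in *M*-cKO, and of the 5 of polymerases delta and epsilon, 4 and 2 were higher. *Pola1*, the catalytic subunit of polymerase alpha, had 1.94, 1.91 and 1.9 FPKM in Ctrl, 2.76, 2.79 and 2.72 FPKM in *F*-cKO, and 2.6, 2.3 and 1.98 FPKM in *M*-cKO. The log2 fold change was 0.51 ± 0.08 in *F*-cKO (adjusted *P* = 0.00443, edgeR) and 0.25 ± 0.11 in *M*-cKO (adjusted *P* = 0.108, edgeR). *Pola2*, its regulatory subunit, was higher in *F*-cKO (0.36 ± 0.09), and the primase genes *Prim1* and *Prim2* passed in neither knockout. *Pole*, the catalytic subunit of polymerase epsilon, had 1.91, 2.1 and 1.56 FPKM in Ctrl, 2.63, 3.03 and 3.31 FPKM in *F*-cKO, and 2.66, 2.53 and 2.56 FPKM in *M*-cKO, and passed in both (0.68 ± 0.12 and 0.46 ± 0.11). *Pold1*, the catalytic subunit of polymerase delta, passed in both as well (0.43 ± 0.10 and 0.39 ± 0.11). *Pold2* and *Pole2* passed in *F*-cKO, and *Pold3* in neither. With Ctrl replicate 3 left out, polymerase alpha and primase counted 1 of 4 in *F*-cKO (*Pola1*), and polymerases delta and epsilon 2 of 5 in *F*-cKO (*Pold1* and *Pole*) and 1 of 5 in *M*-cKO (*Pole*).

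Of the 3 genes of nucleotide synthesis, all were higher in *F*-cKO, and 2 passed in *M*-cKO. Both genes that join Okazaki fragments were higher in both knockouts. *Rrm2*, the regulatory subunit of ribonucleotide reductase, had 29, 26.7 and 22.5 FPKM in Ctrl, 38.1, 35.7 and 40.8 FPKM in *F*-cKO, and 35.3, 38.9 and 37.8 FPKM in *M*-cKO. *Rrm1*, its catalytic subunit, had 8.61, 8.14 and 6.59 FPKM in Ctrl, 11.8, 11.2 and 12.6 FPKM in *F*-cKO, and 9.94, 10.1 and 11 FPKM in *M*-cKO. For both genes all knockout libraries lay above all Ctrl libraries. *Tyms*, which makes thymidylate, was higher in *F*-cKO (0.47 ± 0.11) and had a change of 0.23 ± 0.11 in *M*-cKO (adjusted *P* = 0.13, edgeR). *Lig1*, the ligase that seals nicks between fragments, had 12, 11.8 and 9.54 FPKM in Ctrl, 16.6, 14.8 and 17.2 FPKM in *F*-cKO, and 14.1, 14.7 and 16.4 FPKM in *M*-cKO (log2 fold changes 0.53 ± 0.10 and 0.43 ± 0.09). *Fen1*, the flap nuclease that trims the fragments, had the largest log2 fold change of the 44 genes in *M*-cKO RNA, 1.25 ± 0.17 (adjusted *P* = 0.000378, edgeR), from 1.46, 1.42 and 1.12 FPKM in Ctrl to 3.47, 2.78 and 3.34 FPKM. In *F*-cKO it had 2.83, 2.32 and 1.89 FPKM (0.80 ± 0.20). *Fen1* overlaps *Tmem258* by 192 bases, and reads there cannot be told apart without strand. Leaving out Ctrl replicate 3 ended the calls of *Tyms* and *Fen1* in *F*-cKO and none of these in *M*-cKO.

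Of the subunits of the single strand binding protein RPA, *Rpa1* was higher in *F*-cKO and *Rpa2* in *M*-cKO. *Rpa1* had 12.9, 12.7 and 11.7 FPKM in Ctrl, 14.6, 14.4 and 15.9 FPKM in *F*-cKO, and 13.4, 13 and 15.6 FPKM in *M*-cKO, all above Ctrl. *Rpa2* had 10.4, 10.2 and 8.28 FPKM in Ctrl, 11.6, 11.1 and 13.7 FPKM in *F*-cKO, and 13.3, 13.4 and 14 FPKM in *M*-cKO. The log2 fold changes that passed were 0.26 ± 0.07 for *Rpa1* (adjusted *P* = 0.0251, edgeR) and 0.49 ± 0.09 for *Rpa2* (adjusted *P* = 0.00261, edgeR). *Rpa3* passed in neither. The call of *Rpa1* was lost without Ctrl replicate 3 and that of *Rpa2* was not.

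Whether the knockouts differed from each other was tested by comparing *M*-cKO with *F*-cKO libraries directly. Of the 44 genes, 9 were lower in *M*-cKO and 0 were higher, where 14.3% of 16802 genes were lower and 13.1% higher. All *M*-cKO libraries lay below all *F*-cKO libraries for 15 of the 44 genes and above them for 1, where 21.6% and 21.3% of all genes did so. The 9 genes were *Orc3* (log2 fold change −0.39 ± 0.08), *Orc4* (−0.30 ± 0.10), *Mcm4* (−0.28 ± 0.07), *Mcm6* (−0.26 ± 0.07), *Pcna* (−0.29 ± 0.07), *Rfc1* (−0.36 ± 0.08), *Rfc3* (−0.24 ± 0.08), *Rfc4* (−0.34 ± 0.09) and *Prim1* (−0.32 ± 0.09). The adjusted *P* values (edgeR) ran from 0.00748 for *Orc3* to 0.0484 for *Rfc3*. They include *Pcna* and 3 of the 5 genes of its loader. *Mcm5*, *Mcm10*, *Cdt1* and *Gmnn* had differences between 0.01 and 0.21, none past the threshold. *Orc3* and *Rfc1* were called in all 11 alternative analyses, *Orc4* in 5 of 11 and *Rfc3* in 3 of 11. The count of 9 fell to 2 without *M*-cKO replicate 1, to 3 without *M*-cKO replicate 2 and to 5 without *F*-cKO replicate 2 or 3. Over all genes 1498 of 17232 and 1500 of 17235 were lower without *M*-cKO replicates 1 and 2, and 1325 of 17212 and 1840 of 17152 without *F*-cKO replicates 2 and 3. Without either *M*-cKO replicate the share of the 44 genes was thus below that of all genes.

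The rest of the replication pathway and the cell types of the cortex were examined with gene lists. Of all genes tested, 11.5% were higher and 9.57% lower in *F*-cKO RNA, and 15.5% and 14.1% in *M*-cKO. Without Ctrl replicate 3 these shares were 5.69% and 3.23% in *F*-cKO, and 11.8% and 8.65% in *M*-cKO. Of 30 further initiation and fork factors tested, 20 were higher and 1 lower in *F*-cKO RNA, and 15 were higher and 1 lower in *M*-cKO. *Top2a*, which untangles daughter strands, rose by 0.98 on the log2 scale in *F*-cKO, and *Dtl*, which marks CDT1 for destruction, by 0.94 in *M*-cKO. Chromatin assembly at the fork counted 10 of 11 higher in *F*-cKO, compared with 6 of 11 higher and 1 lower in *M*-cKO. The lower gene was *Nasp*, a histone chaperone (−0.34). Of 13 genes of nucleotide supply, 6 were higher and 1 lower in *F*-cKO and 4 were higher in *M*-cKO, where *Tk1*, the thymidine kinase, rose by 1.34. Of 8 E2F factors, 5 were higher in *F*-cKO and 4 in *M*-cKO, *E2f3* among them in both (0.62 and 0.69). All of these lists were also counted without Ctrl replicate 3. The initiation and fork factors then counted 16 of 30 higher in *F*-cKO and 10 of 30 in *M*-cKO. Chromatin assembly then counted 6 of 11 higher in *F*-cKO, and in *M*-cKO 4 higher and 1 lower. Nucleotide supply fell to 2 of 13 higher and 0 lower for *F*-cKO and stayed at 4 for *M*-cKO, and the E2F factors to 2 of 8 for *F*-cKO and 3 of 8 for *M*-cKO.

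Cell type markers moved beside these genes, and their part in the result was not tested. The shares over all genes given above apply to their counts too. All 14 mitosis genes were higher in *F*-cKO RNA and 12 of 14 in *M*-cKO. *Mki67*, a marker of cycling cells, rose by 0.95 and 0.81 on the log2 scale. These counts were 12 and 11 of 14 without Ctrl replicate 3. Summed over the list, mitosis genes held 457.2 to 589.5 CPM in Ctrl, 875.2 to 1077 CPM in *F*-cKO and 831.4 to 853 CPM in *M*-cKO. Intermediate progenitor genes were higher for 5 of 7 in *F*-cKO and 4 of 7 in *M*-cKO. Radial glia genes counted 5 higher and 2 lower of 9 in *F*-cKO, and 4 higher and 2 lower in *M*-cKO, with *Sox2* higher (0.90) and *Fabp7* lower (−0.97) in *M*-cKO. When Ctrl replicate 3 was left out, radial glia counted 5 higher and 0 lower in *F*-cKO, and 3 and 2 in *M*-cKO, and the counts of intermediate progenitor genes were the same. Neuronal genes summed to 7987 to 8760 CPM in Ctrl, 7912 to 8767 CPM in *F*-cKO and 8169 to 8511 CPM in *M*-cKO, with overlapping ranges. Markers of the ganglionic eminence, a neighbouring region, and of interneurons were higher for 4 of 8 in *F*-cKO and 8 of 8 in *M*-cKO, and for 1 of 8 and 8 of 8 without Ctrl replicate 3. Their sum was 421.3 to 428 CPM in Ctrl, 398 to 534.7 CPM in *F*-cKO and 573 to 769.3 CPM in *M*-cKO. The 6 endothelial markers summed to 143.3 to 151.4 CPM in Ctrl RNA, 122 to 136.8 CPM in *F*-cKO and 118.7 to 160.8 CPM in *M*-cKO, and the 6 microglial markers to 43.5 to 50.7, 33.9 to 47.5 and 36.8 to 57.3 CPM. The 5 meningeal markers summed to 81.9 to 168.3 CPM in Ctrl RNA, 20.2 to 71 CPM in *F*-cKO, below Ctrl, and 45.5 to 240.2 CPM in *M*-cKO. Of these 5, 2 were lower in *F*-cKO against Ctrl (0 without Ctrl replicate 3), 0 passed in *M*-cKO, and 3 were higher in *M*-cKO than in *F*-cKO, with median log2 fold changes of −1.20, 0.45 and 1.54. The 8 erythroid genes summed to 381.8 to 699.7 CPM in Ctrl, 288.2 to 409.8 CPM in *F*-cKO and 389.1 to 578.6 CPM in *M*-cKO. The embryonic globins *Hbb-y* and *Hba-x* were higher in both knockouts (log2 fold changes 4.90 and 2.91 in *F*-cKO, 3.26 and 1.78 in *M*-cKO), the adult globin *Hbb-bs* was lower in *F*-cKO (−0.71), and 5 of the 8 were higher in *M*-cKO than in *F*-cKO. Without Ctrl replicate 3 the list counted 0 higher and 2 lower in *F*-cKO and 1 higher in *M*-cKO.

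**Figure D3:**
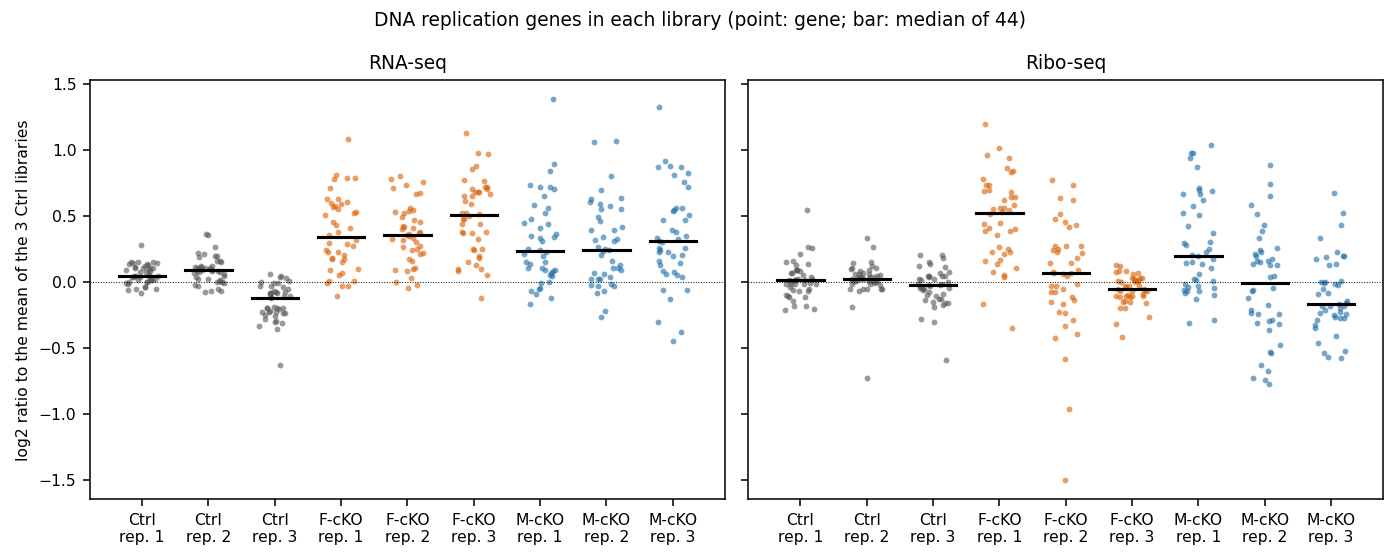
Each point is 1 of the 44 genes, as its log2 ratio to the mean of the 3 Ctrl libraries (y axis), in each RNA-seq and Ribo-seq library (x axis), with the median as a bar. In RNA the 6 knockout medians lie between 0.23 and 0.51, above the Ctrl medians of −0.12 to 0.09, whereas in footprints the medians of all groups overlap.

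The share of Ribo-seq counts taken by the 44 genes was 0.299% ± 0.0179 (SD, n = 3) in Ctrl, compared with 0.34% ± 0.0679 for *F*-cKO and 0.307% ± 0.035 for *M*-cKO. Median log2 ratios to the Ctrl mean were 0.52, 0.07 and −0.05 in *F*-cKO replicates 1, 2 and 3, so that replicate 1 stood apart. In *M*-cKO they were 0.20, −0.01 and −0.16. In *F*-cKO 0 of the 44 genes passed in either direction, where 0% of all 14335 genes were called, and 0 of the 44 genes had an unadjusted *P* below 0.05. At that *P* 227 of all 14335 genes were higher and 91 lower. DESeq2 also called 0 of the 44 genes. The median log2 fold change was 0.19 (0.05 over all genes). It was 0.03 without *F*-cKO replicate 1, with 24 of the 44 genes above 0, 0.24 without replicate 2 and 0.35 without replicate 3. Without *F*-cKO replicate 1, which had the highest values, the medians by role lay between −0.35 and 0.12, and without replicate 2, the library rich in endothelial and meningeal markers, they lay between 0.03 and 0.49.

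In *M*-cKO footprints 3 of the 44 genes were higher and 1 was lower, where 7.13% of 14314 genes were higher and 7.5% lower, and the median log2 fold change was −0.05 (0 over all genes). This median had no steady sign: it was −0.12 without *M*-cKO replicate 1, 0.00 without replicate 2 and 0.04 without replicate 3. *Cdt1* had 8.84, 8.04 and 6.9 RPKM in Ctrl, 16.5, 6.29 and 7.96 RPKM in *F*-cKO, and 16.2, 13.7 and 10.6 RPKM in *M*-cKO. *Mcm3* had 33.1, 32.3 and 34.9 RPKM in Ctrl, 79, 45.1 and 31.1 RPKM in *F*-cKO, and 60.8, 49.2 and 41.6 RPKM in *M*-cKO. For both genes every *M*-cKO value exceeded every Ctrl value, and the *F*-cKO libraries overlapped with Ctrl. *Mcm10* had 1.61, 1.87 and 2.13 RPKM in Ctrl, 3.44, 2.8 and 1.69 RPKM in *F*-cKO, and 3.56, 2.92 and 2.65 RPKM in *M*-cKO. The log2 fold changes in *M*-cKO were 0.78 ± 0.18 for *Cdt1* (adjusted *P* = 0.0313, edgeR), 0.61 ± 0.14 for *Mcm3* (adjusted *P* = 0.0298, edgeR) and 0.71 ± 0.16 for *Mcm10* (adjusted *P* = 0.03, edgeR). All 3 were also higher in RNA. *Cdc6* (0.60 ± 0.19), *Mcm2* (0.41 ± 0.13), *Lig1* (0.40 ± 0.14) and *Mcm5* (0.30 ± 0.18), each higher in *M*-cKO RNA, did not pass in footprints, with adjusted *P* of 0.0676, 0.0735, 0.0896 and 0.263 (edgeR). DESeq2 called *Cdc6*, *Mcm2* and *Lig1* higher (adjusted *P* of 0.0167, 0.0218 and 0.0333), as did edgeR without *M*-cKO replicate 3 (0.0188, 0.0232 and 0.0218). For 8 of the 44 genes every *M*-cKO footprint value exceeded every Ctrl value and for 3 it was lower, where 19.9% and 19% of all genes did so. In the same footprints 5 of 14 mitosis genes were higher, with sums of 1338 to 1828 CPM in *M*-cKO and 1135 to 1194 CPM in Ctrl, and 4 of 8 ganglionic eminence genes, with sums of 251.1 to 447.7 and 149.7 to 225.1 CPM. Their part in the footprint calls was not tested.

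*Rfc4* was the gene with lower footprints in *M*-cKO. It had 43, 44 and 40.9 RPKM in Ctrl, 64.3, 39 and 40.9 RPKM in *F*-cKO, and 34.7, 23.4 and 28.3 RPKM in *M*-cKO. Every *M*-cKO library was below every Ctrl library, with a log2 fold change of −0.56 ± 0.13 (adjusted *P* = 0.0316, edgeR), whereas its RNA changed by 0.01 ± 0.10 (adjusted *P* = 0.93, edgeR). *Rfc4* overlaps *Eif4a2*, a translation initiation factor gene, by 185 bases. None of the 4 calls in *M*-cKO footprints survived leaving out any single Ctrl library, and 0 of the 44 genes passed when all 9 Ribo-seq libraries were fitted together. Over all genes the calls fell as well. They fell from 1020 higher and 1073 lower to 115 to 269 higher and 62 to 192 lower without a Ctrl library. In the fit of all 9 libraries 29 were higher and 6 lower. *Pcna* had 93.5, 101.9 and 88.4 RPKM in Ctrl, 152.4, 91.7 and 94.4 RPKM in *F*-cKO, and 89.7, 74.9 and 73.5 RPKM in *M*-cKO, with a change of −0.24 ± 0.10 in *M*-cKO that did not pass (adjusted *P* = 0.143, edgeR). *Fen1* footprints were 2.35, 0.967 and 1.81 RPKM in Ctrl and 1.75, 1.77 and 2.54 RPKM in *M*-cKO, and overlapped. When *M*-cKO footprints were set directly against those of *F*-cKO, 0 of the 44 genes passed in either direction, as did 0% of 14262 genes, and 2 of the 44 had an unadjusted *P* below 0.05, both lower in *M*-cKO, where 444 of 14262 genes were lower and 710 higher at that *P*. DESeq2 called 0 of them.

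**Figure D4:**
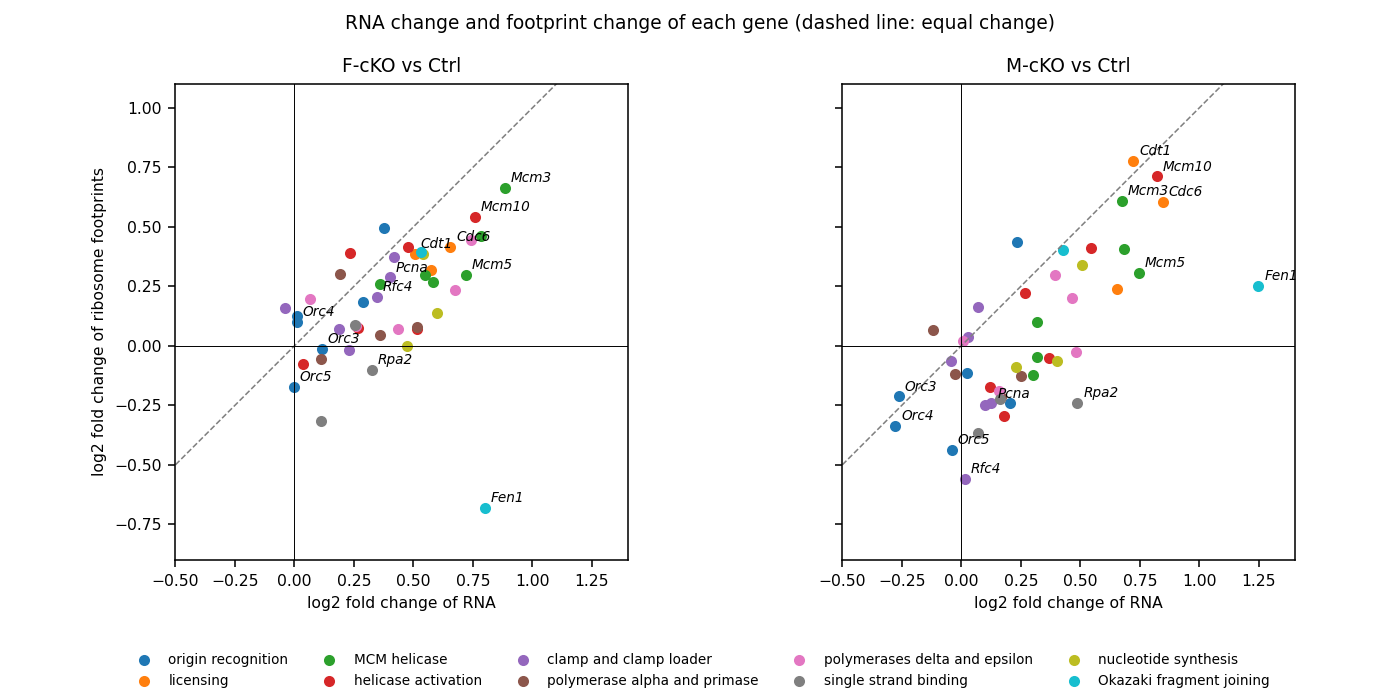
Log2 fold change of RNA (x axis) and of footprints (y axis) of each of the 44 genes in *F*-cKO (left) and *M*-cKO (right) against Ctrl, coloured by role, with a dashed line where both are equal. In each panel 37 of the 44 genes lie below the line, and in *M*-cKO *Cdt1*, *Mcm10* and *Mcm3* lie highest on the footprint axis and *Rfc4* lowest.

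RNA and footprint changes can be set side by side, since no library is shared between the assays. Over the 44 genes in *M*-cKO, Pearson's r was 0.708 and Spearman's rho 0.684, and in *F*-cKO they were 0.406 and 0.533. These are descriptions across genes, which share libraries and are not independent replicates. The signed log2 change of footprints lay below that of RNA for 37 of the 44 genes in each knockout, which includes genes such as *Rfc4* in *M*-cKO whose footprint change was negative and larger in size than its RNA change. The same share over all genes was not counted, and this count was not repeated without single libraries.

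Translational efficiency (TE), the ratio of footprints to RNA, was high for these genes in Ctrl. Taken as mean RPKM over mean FPKM, the median TE level of the 44 genes was 2.04, from 0.795 for *Pold3* to 5.21 for *Rrm1*, and all 44 lay above the median of 0.79 over all genes. With a pseudocount of 0.1 or 1 added to both levels the median over all genes was 0.893 or 0.975, and 42 or 41 of the 44 genes lay above it. *Pola1* (4.55), *Rpa1* (3.81) and *Rfc4* (3.72) followed *Rrm1*. In *F*-cKO the median TE level was 1.67 (0.85 over all genes) and in *M*-cKO 1.79 (0.944 over all genes). The authors computed RPKM and FPKM separately, so the scale of this ratio is arbitrary.

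Tested as the interaction of assay and genotype, TE passed the threshold for 0 of the 44 genes in *F*-cKO, where 0% of 14322 genes were called, which does not show that TE was alike. In *M*-cKO 0 of 44 passed, where 1.24% of 14328 genes were higher and 0.824% lower. Without adjustment, *P* was below 0.05 for 5 genes of the *F*-cKO comparison and for 4 of the *M*-cKO one, all of them lower. At the same *P* 835 of 14322 and 1269 of 14328 genes were lower, so the share in *M*-cKO is close to that of all genes. The 5 in *F*-cKO were *Fen1*, *Rrm1*, *Pola1*, *Mcm5* and *Pola2*, with log2 changes between −1.51 and −0.36. The 4 in *M*-cKO were *Fen1* (−0.94 ± 0.41), *Rfc4* (−0.51 ± 0.16), *Orc2* (−0.38 ± 0.15) and *Pcna* (−0.31 ± 0.13). *Rfc4* had the smallest adjusted *P* of the 44 in *M*-cKO, 0.111 by edgeR, and DESeq2 called it lower (−0.53, adjusted *P* = 0.0491). The median log2 change of TE was −0.21 for *F*-cKO and −0.23 for *M*-cKO, compared with −0.00 and 0.02 over all genes, and was below 0 for 37 and 33 of the 44 genes. These medians moved with single libraries. For *F*-cKO the median was −0.46 without Ribo-seq replicate 1, −0.14 without replicate 2 and −0.14 without replicate 3. For *M*-cKO it was −0.36 without Ribo-seq replicate 1, −0.13 without replicate 3 and −0.14 without RNA-seq Ctrl replicate 3. The number of genes above 0 moved as well. In *F*-cKO it was 7 with all libraries, 2 without Ribo-seq replicate 1 and 14 without replicate 3. In *M*-cKO it was 11 with all libraries, 6 without Ribo-seq replicate 1 and 16 without RNA-seq Ctrl replicate 3. *M*-cKO and *F*-cKO did not differ in TE past the threshold for any of the 44 genes by edgeR (0% of 14314 genes called, 0 of 44 at an unadjusted *P* below 0.05, and 0 by DESeq2). At that unadjusted *P* 316 of 14314 genes were higher in *M*-cKO and 227 lower.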

How the data were processed

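RNA-seq and Ribo-seq of E15.5 cortex were analysed from 18 libraries, 3 per group and assay, called biological repeats by the labels. For Ribo-seq the study's methods can be read as taking 3 cortical samples from a single litter, and for RNA-seq no source used here names the litters. *P* values may therefore measure only the spread between these samples. The authors aligned RNA-seq reads with HISAT2 2.0.5 and Ribo-seq reads, cut of adapters, with TopHat2 to mm10, and counted footprints with HTSeq, per the study's methods and the submitters' processing notes. The RNA counter, annotation and strand setting are not given in the sources used here. The authors deposited raw read counts, RNA levels in FPKM and footprint levels in RPKM. Counts were used for all tests, and FPKM and RPKM only as levels. Of 54838 genes listed for Ribo-seq, 40490 had blank counts and were left out.

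Each comparison was fitted on its own 6 libraries with edgeR 4.0.16 (R 4.3.3), TMM scaling, filterByExpr (minimum count 10, total 15) and the quasi-likelihood test, with Benjamini-Hochberg adjustment over all genes tested and a threshold of 0.05. TE was tested as the interaction of assay and genotype over 12 libraries. The script was tested on simulated data. Alternatives were DESeq2 1.42.0, RLE scaling, no filter, 1 fit of all libraries, a replicate block and leaving out each library, and, chosen after seeing the data, a filter per assay for TE and the gene lists without single libraries. The members and lists were chosen with earlier results of these data known. Values per library are given for the gene with the smallest adjusted *P* of each role in either knockout RNA comparison, for genes called in footprints, and for the highest and lowest Ctrl RNA levels. Those of *Orc3* and *Rfc1*, and levels in the other knockout, were added after their values were seen. Depth was 18504094 to 22592406 reads per RNA-seq and 10973699 to 35853227 per Ribo-seq library, and replicates differed beyond sampling noise.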

Additional observations from a re-analysis of the deposited data

How the results depend on the processing

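No called gene changed sign in any alternative run. Over the 44 genes, all comparisons and alternatives, 5121 results stayed on their side of the threshold, 125 lost it and 34 gained it. Those that stayed include genes never called, so the losses are to be read against the called genes that follow. Of 26 genes higher in *F*-cKO RNA, 14 were called in all 11 alternatives, the 6 helicase genes among them. Of 18 higher in *M*-cKO RNA, 13 were, and of 2 lower there, 0 were. Of 9 lower in *M*-cKO than in *F*-cKO RNA, 2 were. Of the 3 higher and 1 lower in *M*-cKO footprints, 0 were. The fit with a replicate block called 17 genes higher in *F*-cKO RNA (1275 of all 16944 genes, compared with 1955 in the main fit). It called 1 higher in *M*-cKO footprints (681 of all 14314, compared with 1020). Deviations of same-numbered libraries from their group means correlated weakly (r from −0.28 to 0.16 over 18 pairs, 5 of them above 0.1). In 6 of 18 cases the highest r was with the same number. Whether same-numbered libraries share a litter or a day cannot be read from this. In *M*-cKO footprints DESeq2 called 6 higher (1617 of all 14314 genes), and 1 fit of all libraries called 0 higher and 0 lower (29 and 6 of 14326). DESeq2 called 1 gene lower in TE of *M*-cKO (498 of all 14328). With a pseudocount of 1 the median TE level in Ctrl was 1.87, and leaving out replicates gave 1.94 to 2.08.

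Leaving out single libraries gave 15 to 25 higher genes in *F*-cKO RNA, with 15 without Ctrl replicate 3 and 17 without *F*-cKO replicate 2. Over all genes 984 of 17300 and 1148 of 17353 were higher there, compared with 1955 of 16944 with all libraries. Leaving them out gave 13 to 19 higher and 0 to 2 lower in *M*-cKO RNA, with 0 lower without Ctrl replicate 1 or 3 or *M*-cKO replicate 2 or 3. Over all genes 2048 to 2584 were higher and 1498 to 2146 lower, compared with 2630 and 2394 of 16968 with all libraries. Between the knockouts it gave 2 to 10 lower and 0 to 1 higher in *M*-cKO, with 2 lower without *M*-cKO replicate 1, 3 without *M*-cKO replicate 2 and 5 without *F*-cKO replicate 2 or 3, and 1 higher without *F*-cKO replicate 1 or 3. Over all genes 1325 to 2224 were lower and 1442 to 2342 higher, compared with 2403 and 2196 of 16802 with all libraries. In *M*-cKO footprints it gave 0 to 7 higher and 0 to 1 lower, with 0 higher without any Ctrl library or *M*-cKO replicate 1 or 2 and 7 without *M*-cKO replicate 3, and 0 lower without any Ctrl library or *M*-cKO replicate 2 or 3. Over all genes 1020 of 14314 were higher and 1073 lower with all libraries. Without a Ctrl library 115 to 269 were higher and 62 to 192 lower. Without *M*-cKO replicates 1, 2 and 3, 500, 771 and 1303 were higher and 380, 524 and 1244 lower. In TE of *M*-cKO leaving out libraries gave 0 to 2 lower, with 2 without *M*-cKO Ribo-seq replicate 1 (*Rfc4* and *Rpa2*). Over all genes 188 of 14338 were lower there, compared with 118 of 14328 with all libraries. The causes were not tested.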

Other observations

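*Mcm7* hosts the microRNA genes *Mir25*, *Mir93* and *Mir106b*, and the Ribo-seq table lists counts for *Mir106b*. The mature products below share the seed in capitals (bases 2 to 8, GRCm38.p6, RefSeq).
mmu-miR-106b-5p: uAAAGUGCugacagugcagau
mmu-miR-93-5p: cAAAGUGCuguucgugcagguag
*Mir106b* held 817, 863 and 503 Ribo-seq counts in Ctrl, 328, 110 and 494 in *F*-cKO, and 5348, 2830 and 1682 in *M*-cKO. Every *M*-cKO library lay above every other library, with a log2 fold change of 3.00 ± 0.46 against Ctrl (adjusted *P* = 0.0117, edgeR), and RNA-seq libraries held 0 to 2 counts. Against *F*-cKO the change of 3.71 ± 0.50 did not pass (adjusted *P* = 0.199, edgeR), where 0% of 14262 genes were called higher. The strand and the origin of these short fragments (footprint or microRNA) were not tested. This gene was chosen after its values were seen.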
